A study of Mus musculus with 23 samples.

Results

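The 10 genes described here encode heat shock chaperones of the cytosol and of mitochondria: Hsp90aa1, Hsp90ab1, Hspa8, Hspd1, Hspe1, Hsph1, Dnaja1, Dnajb1, Hspa1a and Hspa1b. They were chosen by symbol and make up 10 of the 24063 genes listed in each library's gene table. Chaperones bind unfolded or newly made proteins and help them fold. HSP70 proteins bind short exposed stretches, J proteins deliver clients to HSP70 and start its ATP hydrolysis, HSP110 proteins exchange its nucleotide, and HSP90 takes over clients such as kinases and steroid receptors at a late stage. Part of the family is made at all times, and part (the inducible HSP70 genes above all) is transcribed when heat shock factor 1 is activated by heat or other proteotoxic stress. Plasma cells and myeloma cells make large amounts of antibody and are known for a high load on protein folding and degradation.

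RNA was measured in 23 libraries of cells sorted as CD138+B220-, the surface pattern of plasma cells, from mice. Control cells came from the bone marrow of IgG1-Cre mice, in which Cre is expressed from an immunoglobulin heavy chain locus in B cells responding to antigen (3 libraries). The myeloma cells came from recipient mice transplanted with donor cells, 4 libraries per donor line. The VQ lines, named VQ-D1 and VQ-D2 and likewise VQ-D4 and VQ-D5, carry Vκ*MYC, a MYC transgene under kappa light chain control, with NrasLSL Q61R/+ and IgG1-Cre; the fifth line, t-VK12653, has the Vκ*MYC transgene and no other. Every line goes back to a single donor, so the MYC-only genotype is represented by 1 donor and the VQ genotype by 4 donors. Recipient numbers in the names of the deposited tables place the 4 libraries of a line in 2 recipients, and in VQ-D4 1 recipient gave marrow, spleen and lymph node while the other gave liver. Below, n therefore counts libraries, not animals, and p-values measure the spread between libraries. Library values are given in replicate order: bone marrow for the 3 controls; marrow, spleen, marrow and spleen for VQ-D1 and for t-VK12653; spleen, spleen, lymph node and lymph node for VQ-D2; marrow, liver, spleen and lymph node for VQ-D4; marrow, marrow, lymph node and lymph node for VQ-D5. No label used here gives the ages of the mice.

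Libraries held 2685579 to 10047314 counted reads (median 4626666), of which 16.4% to 27.3% fell on the ribosomal RNA gene Rn45s. Myc was at 43.01 ± 14.3 CPM (counts scaled to the size of the library; mean ± SD, n = 3) for the controls and at means of 591 to 6532 CPM in the lines, and Nras at 32.3 ± 0.823 CPM in controls and means of 42.3 to 124 CPM in the lines. Of 11 plasma cell markers, 10 were listed and none was at 0 in any group; their summed level was 34975 to 64945 CPM in controls and 4798 to 15726 CPM in the lines. Markers of other cells also separated the groups. The 13 listed neutrophil markers summed to 3268 to 9042 CPM in controls and 4.32 to 1212 CPM in the lines, and none was at 0 throughout a group. The ranges in controls and in the lines were 138 to 839 and 1.57 to 64.4 CPM for 10 erythroid markers, 469 to 737 and 61.7 to 195 CPM for 8 B cell markers, 56.7 to 79.7 and 0.618 to 47.4 CPM for 9 T and NK cell markers, and 78.0 to 182 and 11.9 to 153 CPM for 8 monocyte and macrophage markers. Markers at 0 throughout a group included the B cell markers Ms4a1 and Pax5 in t-VK12653 and Pax5 in VQ-D4, the macrophage marker Ms4a7 in both, C1qa in VQ-D4, the globin genes Hbb-b2 and Hbb-bt in VQ-D5, 1 to 4 T and NK cell markers in each line, 3 to 7 hepatocyte markers in every group but VQ-D4, and the endothelial and stromal markers Kdr in VQ-D2 and Kdr, Cdh5, Lepr and Col3a1 in t-VK12653. The liver library of VQ-D4 had the highest sums of 8 hepatocyte markers (43.1 CPM, against 0.324 to 2.04 CPM in controls) and of 7 endothelial and stromal markers (747.7 CPM, against 67.7 to 101 CPM in controls). The endothelial and stromal sums were also above controls in all 4 VQ-D1 libraries (121 to 372 CPM), and the monocyte and macrophage sums overlapped the controls in every line but VQ-D5. The plasma cell, neutrophil, erythroid, B cell and T and NK cell sums moved with every comparison against controls below, and the part of these markers in those results was not tested. In bulk RNA, fewer cells carrying a transcript and less transcript per cell cannot be told apart.

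Promoter windows of 300 bases (250 before and 50 after the RefSeq start site, build GRCm38.p6) were given for 7 of the 10 genes; Hspa8, Hsp90aa1 and Hsp90ab1 had none. Heat shock factor 1 binds inverted repeats of a short unit, called heat shock elements. Each window was searched on both strands for a pair of units (GAA, any 2 bases, then TTC; or TTC, any 2 bases, then GAA), for 3 units in a row (the same with 2 further bases and 1 more unit, GAA after TTC or TTC after GAA, so that each holds a pair) and for the E-box CACGTG, the sequence bound by MYC with MAX. Of 32851 windows of all genes, 15.1% held a pair, 0.603% held 3 units and 7.15% held an E-box. The windows below are those of the mitochondrial chaperonin pair, of the HSP110 gene that differed in every pair of VQ lines, and of the inducible HSP70 pair; capitals mark matches to a pair of units.
Hspe1, chr1:55087898-55088197, plus strand: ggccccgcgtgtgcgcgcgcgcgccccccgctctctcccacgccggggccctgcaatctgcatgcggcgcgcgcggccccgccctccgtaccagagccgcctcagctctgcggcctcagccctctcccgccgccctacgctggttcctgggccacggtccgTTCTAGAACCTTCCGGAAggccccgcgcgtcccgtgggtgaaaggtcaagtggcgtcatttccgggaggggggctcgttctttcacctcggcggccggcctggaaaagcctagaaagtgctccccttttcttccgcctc
Hsph1, chr5:149636266-149636565, minus strand: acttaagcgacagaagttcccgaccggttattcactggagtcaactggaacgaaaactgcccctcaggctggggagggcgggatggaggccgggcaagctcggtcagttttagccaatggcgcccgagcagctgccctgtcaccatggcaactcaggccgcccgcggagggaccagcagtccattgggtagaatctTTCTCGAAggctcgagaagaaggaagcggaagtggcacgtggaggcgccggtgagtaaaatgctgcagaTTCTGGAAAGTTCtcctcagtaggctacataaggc
Hspa1a, chr17:34972107-34972406, minus strand: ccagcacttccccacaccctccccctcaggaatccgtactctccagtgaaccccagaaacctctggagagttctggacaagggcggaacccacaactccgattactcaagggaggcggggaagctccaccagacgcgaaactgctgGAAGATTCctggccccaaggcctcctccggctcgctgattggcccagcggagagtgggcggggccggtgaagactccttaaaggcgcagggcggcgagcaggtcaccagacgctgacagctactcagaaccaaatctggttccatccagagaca
Hspa1b, chr17:34959189-34959488, minus strand: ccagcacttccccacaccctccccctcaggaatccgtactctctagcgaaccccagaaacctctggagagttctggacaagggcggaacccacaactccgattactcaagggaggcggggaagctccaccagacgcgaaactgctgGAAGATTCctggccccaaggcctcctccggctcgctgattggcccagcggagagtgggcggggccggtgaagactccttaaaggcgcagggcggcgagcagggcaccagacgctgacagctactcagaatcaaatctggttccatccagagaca
The Hspe1 window held 2 matches to 3 units. Hspd1 lies head to head with Hspe1, and 1 of its 2 windows covers the same DNA on the other strand (285 shared bases, start sites 216 bases apart), so both genes share these matches; the other Hspd1 window held an E-box. Both Hsph1 windows held 1 match to 3 units and 1 E-box. The Hspa1a and Hspa1b windows were identical at 296 of 300 aligned positions (98.7%), and each held 1 pair and no run of 3 units. Of the J protein genes, 1 of 3 Dnaja1 windows held a pair and neither Dnajb1 window held any of the 3 motifs. A match is a description of letters, and a window without one can hold elements with other letters.

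On a per-length scale (the deposited TPM values, scaled to gene length and library), the control order ran from Hsp90ab1 (1308 ± 50.3 TPM) through Hspa8 (333 ± 22.7), Dnajb1 (130.5 ± 61.1), Hsph1 (69.98 ± 21.8), Hspe1 (66.3 ± 11.9), Hsp90aa1 (62.01 ± 9.18), Hspd1 (31.6 ± 5.96), Dnaja1 (19.7 ± 2.16) and Hspa1b (19.5 ± 17.8) to Hspa1a (9.03 ± 9.22; all SD, n = 3). Neighbours in this order from Dnajb1 to Hsp90aa1 overlapped between libraries, as did Dnaja1 with Hspa1b and Hspa1b with Hspa1a, while Hsp90ab1, Hspa8 and Hspd1 each overlapped neither neighbour. The 10 genes together took 2065 ± 96.3 CPM in controls and means of 3798 (VQ-D4) to 5932 CPM (VQ-D5) in the lines, most of it Hsp90ab1. Hsp90ab1, Hspa8, Hspd1 and Hspe1 were above all 3 controls in all 20 myeloma libraries, a pattern seen in 8.62% of the 12867 genes tested. Dnajb1 was below all 3 controls in all 20, as were 10.4% of genes. The other 5 genes overlapped the controls in at least 1 line. The plot of the members by library shows both sets.

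**Figure D1:**
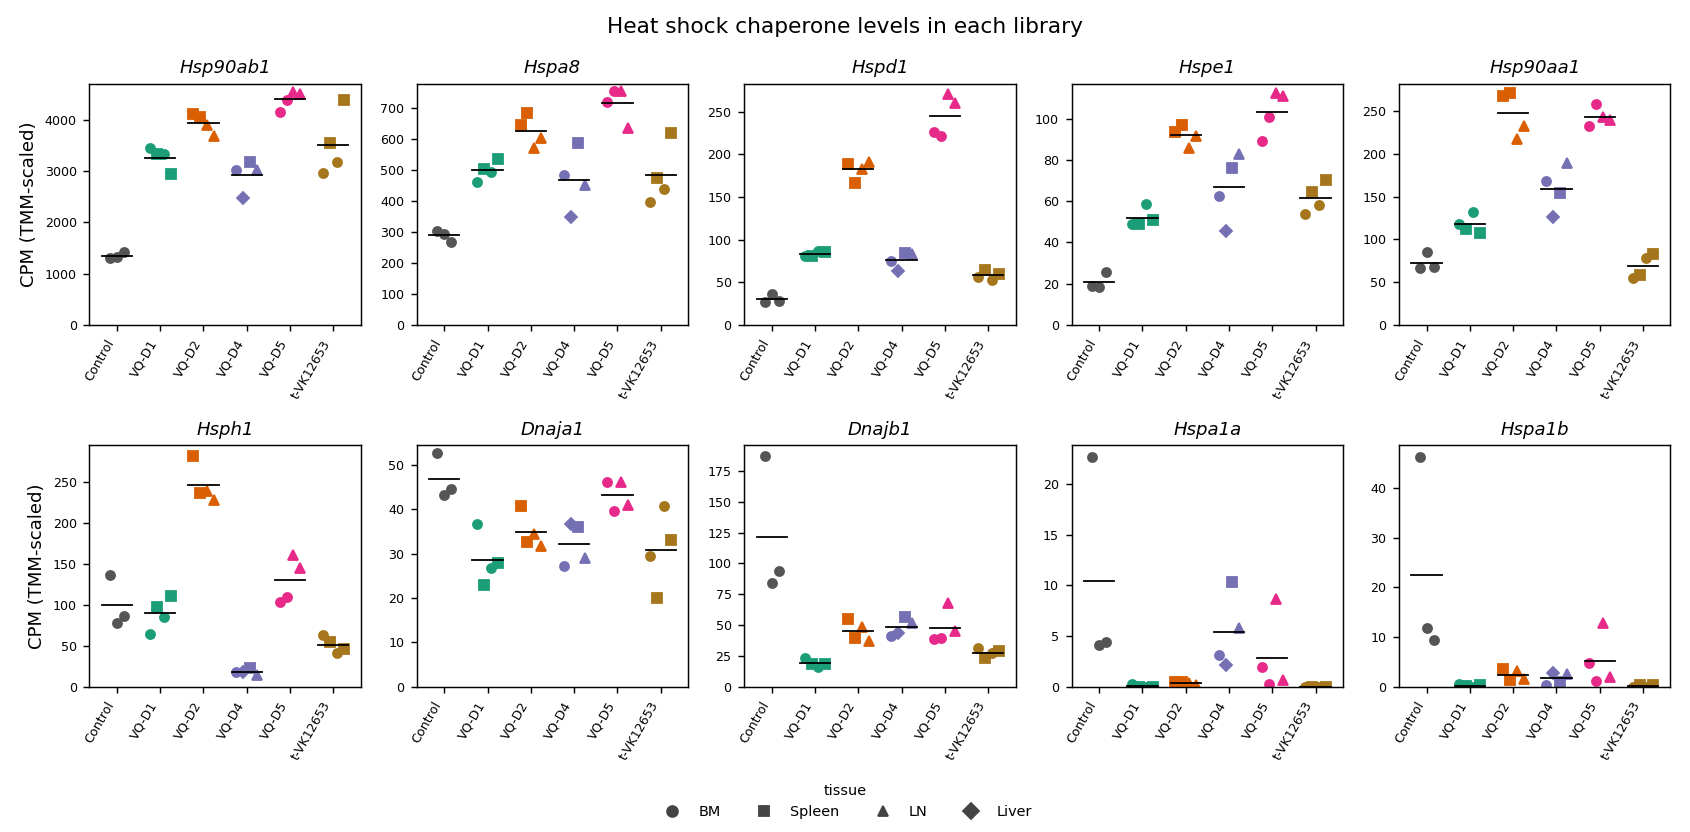
CPM of each of the 10 chaperone genes (vertical axes, linear, from 0) in the 23 libraries by group; the marker shape gives the tissue and the bar the group mean. Hsp90ab1, Hspa8, Hspd1 and Hspe1 lie above the controls in every myeloma library, Dnajb1 lies below them, and Hsph1 lies above them in VQ-D2 and below them in VQ-D4.

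Between each line and the controls, edgeR's quasi-likelihood test with group and tissue as terms called 9 of 10 members for VQ-D1 (5 higher, 4 lower), 9 for VQ-D2 (6 and 3), 9 for VQ-D4 (5 and 4), 8 for VQ-D5 (5 and 3) and 9 for t-VK12653 (4 and 5) at an adjusted p under 0.05. Of all 12867 genes tested, 59.4% were called for VQ-D1 (29.7% higher, 29.6% lower), 57.5% for VQ-D2 (29.6% and 27.8%), 54.3% for VQ-D4 (27.5% and 26.8%), 63.8% for VQ-D5 (31.2% and 32.5%) and 56.9% for t-VK12653 (28.8% and 28.1%). The members' counts exceed these shares, but with more than 50% of genes called, a call by itself says little about the family. The median log2 fold change of the members was 0.17, 1.02, 0.11, 0.78 and -0.33, against 0.02, 0.01, 0.01, -0.04 and 0.01 over all genes. The 5 comparisons share the same 3 control libraries. VQ-D2 has no marrow library, so its difference from the marrow controls rests on the tissue effect estimated in the other lines. The liver library of VQ-D4 is the only one of its tissue, so the tissue term takes it up. Every VQ-D4 value from this fit, also against other lines, therefore rests on its marrow, spleen and lymph node libraries. These all came from the same recipient.

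**Figure D2:**
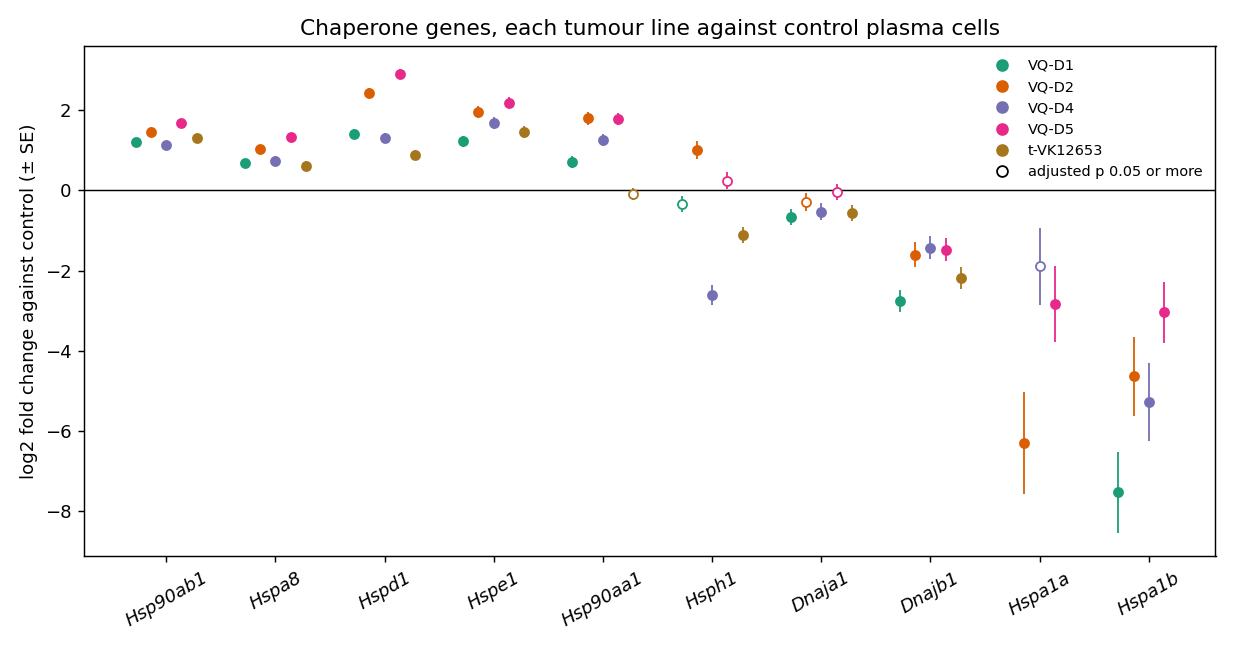
Log2 fold change (vertical axis) of each gene (horizontal axis) in each myeloma line against controls, with bars of 1 SE. Open symbols have an adjusted p of 0.05 or more. Hspa1a in VQ-D1 and t-VK12653 and Hspa1b in t-VK12653, with 3 or fewer reads in the line, are left out. The mitochondrial and HSP90 genes lie mostly above 0, and Dnajb1 and the inducible HSP70 genes below.

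Hsp90ab1 encodes HSP90 beta, the constitutively made cytosolic HSP90 (chromosome 17, 45567775 to 45573271, minus strand, GRCm38). It was at 1309.9, 1324 and 1418 CPM in the controls. The VQ-D1 libraries held 3437, 3339, 3320.2 and 2935 CPM and the VQ-D2 libraries 4117, 4042, 3891 and 3674 CPM. Every one of these 8 libraries was above 2 times the level of any control. VQ-D4 held 3009, 2479, 3182 and 3014 CPM, VQ-D5 4150.3, 4386, 4538 and 4504 CPM and t-VK12653 2952, 3539, 3172 and 4374 CPM. None of the 5 lines overlapped the controls. Among the VQ lines only VQ-D1 and VQ-D4 overlapped in CPM, while t-VK12653, with replicate 4 its highest library, overlapped each VQ line. These overlaps depend on the scale. In TPM, t-VK12653 (2406 to 3079) overlapped neither VQ-D2 (4063 to 4356) nor VQ-D5 (3864 to 4244). On that scale VQ-D2 and VQ-D5 overlapped, and VQ-D1 and VQ-D4 did not. The log2 fold change against controls was 1.21 (adjusted p = 3.51e-09, SE 0.106) in VQ-D1, 1.45 (adjusted p = 1.89e-09, SE 0.121) in VQ-D2 and 1.12 (adjusted p = 4.03e-08, SE 0.114) in VQ-D4. It was 1.68 (adjusted p = 2.05e-11, SE 0.110) in VQ-D5 and 1.30 (adjusted p = 1.48e-09, SE 0.108) in t-VK12653. The gene rose in each line.

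Hsp90aa1 encodes HSP90 alpha, the stress-responsive cytosolic isoform (chromosome 12, 110690605 to 110702728, minus strand). Controls were at 66.4, 84.8 and 67.2 CPM and t-VK12653 at 54.5, 58.2, 78.2 and 83.2 CPM, and these 2 groups overlapped. VQ-D1 held 118, 112, 133 and 108 CPM and VQ-D4 168, 126, 155 and 189 CPM. VQ-D2 and VQ-D5 were the highest, at 268, 271, 218 and 233 CPM and 233, 258, 243 and 239 CPM, and overlapped each other. All 16 VQ libraries were above all controls. The log2 fold change was 0.70 (adjusted p = 0.000295, SE 0.146) in VQ-D1 and 1.26 (adjusted p = 8.23e-07, SE 0.158) in VQ-D4. In VQ-D2 it was 1.80 (adjusted p = 8.75e-09, SE 0.166) and in VQ-D5 1.77 (adjusted p = 1.21e-09, SE 0.150). In t-VK12653 it was -0.09 (adjusted p = 0.651, SE 0.150), with a 95% interval of -0.40 to 0.23. Of the transcript's 50-base stretches, 47.5% also occur in another annotated gene, so reads could be split between copies.

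Hspa8 encodes HSC70, the constitutive HSP70 of the cytosol (chromosome 9, 40800984 to 40810087, plus strand; the gene contains the small nucleolar RNA genes Snord14c, Snord14d and Snord14e). It was at 303, 295 and 268 CPM in controls. VQ-D1 was at 462, 504, 495 and 537 CPM, and t-VK12653 at 396, 473, 440.3 and 621 CPM. VQ-D4 ranged most widely, at 485, 349.8, 586 and 453 CPM, with the liver library lowest. These 3 lines overlapped one another and lay above the controls. VQ-D2 held 647, 684, 572 and 603 CPM and VQ-D5 720.0, 755, 754 and 637 CPM, above VQ-D1. The log2 fold change ran from 0.62 (adjusted p = 4.29e-05, SE 0.107) in t-VK12653 to 1.33 (adjusted p = 6.95e-10, SE 0.109) in VQ-D5, and was called in all 5 lines. Of its 50-base stretches, 38.6% occur in another annotated gene.

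Hspd1 (HSP60) and Hspe1 (HSP10) encode the barrel and the lid of the mitochondrial chaperonin, which folds imported proteins. They lie head to head on chromosome 1 (Hspd1, 55077835 to 55088243, minus strand; Hspe1, 55088132 to 55091307, plus strand) and overlap, and whether the counting used strand is not stated in the sources. Hspd1 was at 26.5, 36.8 and 27.8 CPM in controls and at 56.02, 64.2, 52.8 and 59.4 CPM in t-VK12653. VQ-D1 held 81.1, 81.3, 86.4 and 85.4 CPM and VQ-D4 74.4, 62.9, 83.9 and 82.7 CPM. The steps were larger in the other lines. VQ-D2 held 189, 167, 183 and 191 CPM and VQ-D5 227, 221, 271 and 261 CPM, with no overlap between these 2 lines or with any other group. Of the 50-base stretches of Hspd1, 39.7% occur in another annotated gene, most of them in the pseudogene Hspd1-ps3, and of those of Hspe1 18.4%, so reads of both could be split between copies. Hspd1 had the largest called rise of any member in VQ-D5, with a log2 fold change of 2.91 (adjusted p = 6.81e-15, SE 0.114). The values were 2.44 (adjusted p = 1.05e-12, SE 0.123) in VQ-D2, 1.41 (adjusted p = 6.36e-10, SE 0.110) in VQ-D1, 1.30 (adjusted p = 7.56e-09, SE 0.118) in VQ-D4 and 0.88 (adjusted p = 8.43e-07, SE 0.113) in t-VK12653.

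Hspe1 followed the same order of control and lines only in part. Controls were at 19.1, 18.4 and 25.4 CPM, VQ-D1 at 48.8, 49.02, 58.7 and 50.9 CPM and t-VK12653 at 53.7, 64.6, 58.3 and 70.4 CPM. VQ-D4 held 62.8, 45.6, 76.1 and 83.03 CPM, from the liver library at the bottom to the lymph node library at the top, and overlapped both. VQ-D2 was at 93.6, 97.2, 85.8 and 91.8 CPM and VQ-D5 at 89.5, 101, 112 and 111 CPM. All 20 myeloma libraries were above the controls, and the lowest line for Hspe1 was VQ-D1 where for Hspd1 it was t-VK12653. The log2 fold change ran from 1.23 (adjusted p = 1.6e-07, SE 0.139) in VQ-D1 to 2.19 (adjusted p = 1.84e-11, SE 0.142) in VQ-D5.

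Hsph1 encodes HSP105, an HSP110 protein that exchanges the nucleotide of HSP70 and helps it dissolve aggregates (chromosome 5, 149614287 to 149636376, minus strand). Controls were at 136, 77.97 and 86.8 CPM, with replicate 1 the highest. VQ-D2 held 281, 237, 239 and 228 CPM, above every other library of the series. VQ-D4 held 17.7, 17.8, 23.3 and 14.7 CPM, below every other library of the series. VQ-D1 was at 64.8, 97.2, 84.7 and 111 CPM and VQ-D5 at 104, 109.6, 161 and 145 CPM, both overlapping the controls. t-VK12653 was at 63.3, 54.6, 40.99 and 45.7 CPM, below the controls. The gene rose in VQ-D2, with a log2 fold change of 1.01 (adjusted p = 0.00102, SE 0.233), and fell in VQ-D4, with -2.61 (adjusted p = 4.12e-08, SE 0.246), and in t-VK12653, with -1.11 (adjusted p = 0.000133, SE 0.207). In VQ-D1 the value was -0.34 (adjusted p = 0.167, SE 0.205). In VQ-D5 it was 0.24 (adjusted p = 0.338, SE 0.212), and without control replicate 1 it was 0.55 with an adjusted p of 0.0203, past the threshold.

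Dnajb1 encodes HSP40, the J protein that works with cytosolic HSP70 and is itself heat inducible (chromosome 8, 83608193 to 83612653, plus strand). Controls held 187, 83.8 and 94.2 CPM, again with replicate 1 the highest. VQ-D1 held 23.7, 18.1, 15.6 and 18.2 CPM and t-VK12653 31.5, 22.9, 27.4 and 29.02 CPM, the lowest 2 groups. VQ-D2 was at 55.1, 39.8, 48.8 and 37.3 CPM, VQ-D4 at 40.9, 43.7, 56.4 and 51.7 CPM and VQ-D5 at 38.99, 39.2, 67.6 and 44.9 CPM. The last 3 overlapped one another, and every myeloma library was below every control. Dnajb1 fell in each line, by log2 fold changes of -2.77 (adjusted p = 8.68e-08, SE 0.274) in VQ-D1, -2.20 (adjusted p = 1.55e-06, SE 0.272) in t-VK12653 and -1.60 (adjusted p = 0.000173, SE 0.301) in VQ-D2. They were -1.48 (adjusted p = 0.000125, SE 0.276) in VQ-D5 and -1.43 (adjusted p = 0.000442, SE 0.293) in VQ-D4. Without control replicate 1 the values were -2.29, -1.74, -1.11, -0.99 and -0.95 in the same order, each still past the threshold.

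Dnaja1 encodes a farnesylated J protein of the cytosol (chromosome 4, 40722150 to 40737149, plus strand; it overlaps Gm6297, Mir207 and Smu1). Controls were at 52.8, 43.2 and 44.6 CPM. VQ-D1 held 36.7, 23.03, 26.7 and 27.97 CPM, VQ-D4 27.3, 36.8, 35.96 and 29.1 CPM and t-VK12653 29.4, 20.1, 40.6 and 33.1 CPM, all below the controls. VQ-D2 held 40.7, 32.5, 34.5 and 31.7 CPM and VQ-D5 46.2, 39.6, 46.2 and 40.97 CPM; VQ-D5 overlapped the controls. The log2 fold change was -0.66 (adjusted p = 0.00559, SE 0.193) in VQ-D1, -0.56 (adjusted p = 0.0178, SE 0.197) in t-VK12653 and -0.53 (adjusted p = 0.0412, SE 0.216) in VQ-D4. It was -0.29 (adjusted p = 0.264, SE 0.220) in VQ-D2 and -0.04 (adjusted p = 0.859, SE 0.199) in VQ-D5, both short of the threshold. The call in VQ-D4 was lost in 10 of 23 fits that each left out 1 library, among them those without control replicate 1 (-0.41, adjusted p = 0.153) and without the marrow library of VQ-D4 (-0.31, adjusted p = 0.343). The call in t-VK12653 was lost without control replicate 1 (-0.47, adjusted p = 0.0771) and without t-VK12653 replicate 1 (-0.51, adjusted p = 0.0602).

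Hspa1a and Hspa1b encode 2 nearly identical copies of HSP72, the heat-inducible HSP70, and lie 9951 bases apart on chromosome 17 (Hspa1b, 34956436 to 34959238; Hspa1a, 34969190 to 34972156, which overlaps Gm20481; both minus strand). Of their 50-base stretches, 62.3% of Hspa1b and 60.3% of Hspa1a occur in another annotated gene, mostly each other, so the split of reads between the 2 genes is uncertain, and their low counts limit every value. Hspa1b had 143, 35 and 36 reads in the controls (46.3, 11.9 and 9.44 CPM) and Hspa1a 70, 12 and 17 reads (22.7, 4.09 and 4.46 CPM). Replicate 1 held more of both than the other controls together.

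In t-VK12653, Hspa1b had 0, 2, 0 and 1 reads and Hspa1a had 0 reads in all 4 libraries. Taking 3 counts over the group as the limit that a count of 0 allows, Hspa1a was at least 55.6-fold lower in t-VK12653 than in controls; the 3 Hspa1b reads give a control level 120 times that of the line, with a 95% counting interval of 40.6 to 588. In VQ-D1, Hspa1b had 2, 1, 0 and 2 reads and Hspa1a 1, 0, 0 and 0 reads. The control level was 120 times (50.8 to 375) that of VQ-D1 for Hspa1b, and 279 times (48.9 to 11116) for Hspa1a. Control replicate 1, which held most of the control reads of both genes, sets much of these sizes. Without it the bound for Hspa1a in t-VK12653 was 23.8-fold, the Hspa1b ratio was 58.2 times (19.1 to 289) for t-VK12653 and 58.3 times (23.8 to 185) for VQ-D1, and the Hspa1a ratio for VQ-D1 was 119 times (19.7 to 4859). With all libraries, both genes passed the test in both lines. The adjusted p for Hspa1b and Hspa1a was 6.98e-06 and 6.55e-05 in t-VK12653, and 3.02e-06 and 3.55e-05 in VQ-D1. Both genes also passed in both lines without control replicate 1.

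The other lines held more. In VQ-D2 Hspa1b was at 3.58, 1.30, 3.10 and 1.51 CPM and Hspa1a at 0.447, 0.434, 0.387 and 0.215 CPM (3, 3, 2 and 1 reads). In VQ-D5 Hspa1b was at 4.78, 1.15, 12.8 and 1.86 CPM and Hspa1a at 1.91, 0.229, 8.63 and 0.698 CPM, with replicate 3, a lymph node library, the highest for both and within the control range. In VQ-D4 Hspa1b was at 0.377, 2.78, 0.972 and 2.55 CPM, below every control, and Hspa1a at 3.14, 2.16, 10.4 and 5.75 CPM, with the spleen and lymph node libraries within the control range. Hspa1b fell by the test in VQ-D2, with a log2 fold change of -4.64 (adjusted p = 0.000491, SE 0.989), in VQ-D4, with -5.29 (adjusted p = 0.000128, SE 0.974), and in VQ-D5, with -3.05 (adjusted p = 0.00186, SE 0.773). Without control replicate 1 these were -3.52, -4.18 and -1.93 (adjusted p = 0.0293 in VQ-D5), each still past the threshold. With counts summed per recipient the VQ-D5 value was -1.90 (adjusted p = 0.0763).

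Hspa1a fell in VQ-D2, with a log2 fold change of -6.30 (adjusted p = 0.000388, SE 1.26), and without control replicate 1 the value was -4.98. In VQ-D4 the value was -1.89 (adjusted p = 0.107, SE 0.962), which missed the threshold. In VQ-D5 it was -2.83 (adjusted p = 0.0152, SE 0.952); without control replicate 1 it was -1.53 (adjusted p = 0.166) and without VQ-D5 replicate 2 it was -2.20 (adjusted p = 0.0788), so this call rests on single libraries. The share of the pair's reads assigned to Hspa1a was 31.6% in controls (99 of 313 reads; 95% exact binomial interval 26.5% to 37.1%), 13.8% in VQ-D2 (6.53% to 24.7%), 36.8% in VQ-D5 (30.4% to 43.6%) and 73.6% in VQ-D4 (64.8% to 81.2%). Within VQ-D4 the share was 89.3% in marrow, 91.4% in spleen and 69.2% in lymph node, all from 1 recipient, and 43.8% in the liver library of the other recipient. By reads, the control level of Hspa1a was 26.2 times (95% counting interval 13.3 to 59.0) that of VQ-D2. The ratio was 2.33 (1.74 to 3.14) for VQ-D4 and 3.08 (2.27 to 4.18) for VQ-D5. Without control replicate 1 these ratios were 11.2, 0.997 and 1.31. With all libraries the ratios, which have no tissue term, again gave smaller falls than the fit (0.0127, 0.270 and 0.141 of the control level). The counting intervals cover counting error only, and how reads shared by both copies were assigned was not tested.

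Among the 4 VQ lines, which share a genotype, each of the 10 genes differed (adjusted p under 0.05 for any difference), as did 80.6% of all genes; over all 6 groups each of the 10 differed too, as did 93.3% of genes. Over the 6 pairs of lines Hsph1 differed in 6, Hspa8, Hsp90aa1 and Hspd1 in 5, Hsp90ab1, Hspe1 and Hspa1a in 4, Dnajb1 and Hspa1b in 3 and Dnaja1 in 2. VQ-D1 was lower than VQ-D5 for all 10 members, where 58.5% of all genes were called (28.8% higher, 29.7% lower). It was lower than VQ-D2 for 8, where 51.3% of genes were called (24.8% higher, 26.5% lower). Of the latter, the Hsp90ab1 call (-0.24 (adjusted p = 0.0486, SE 0.101)) was lost in 16 of 23 fits that each left out 1 library. VQ-D4 was lower than VQ-D5 for 8 and higher for none (background 58.7% of genes, 29.1% higher and 29.6% lower). VQ-D2 and VQ-D5 were the closest pair by count, with 4 members called (1 higher, 3 lower in VQ-D2; background 38.6%, 18.6% higher and 20% lower), which became 2 without VQ-D5 replicate 3. VQ-D2 against VQ-D4 gave 6 calls (5 higher, 1 lower), with a background of 57% (29.4% higher and 27.6% lower). VQ-D1 against VQ-D4 gave 5 (1 higher, 4 lower), with a background of 41.2% (20.4% higher and 20.8% lower). The counts for VQ-D2 against VQ-D5 and against VQ-D4 are near the shares of all genes called. VQ-D2 and VQ-D5 were also the closest of the 6 pairs over all genes. Other calls lost on leaving out 1 library were Dnaja1 in VQ-D4 against VQ-D5 (6 of 23 fits), Hspa8 in VQ-D2 against VQ-D4 (4) and against VQ-D5 (1, VQ-D5 replicate 3), Hspa1b in VQ-D1 against VQ-D2 (4), Hspa1a in VQ-D2 against VQ-D5 (3) and Hsph1 in VQ-D1 against VQ-D5 (1, VQ-D1 replicate 1).

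The sizes differed by gene. Hsph1 was higher in VQ-D2 than in VQ-D4 by a log2 fold change of 3.62 (adjusted p = 1.23e-10, SE 0.230) and lower in VQ-D4 than in VQ-D5 by -2.85 (adjusted p = 2.44e-09, SE 0.227). Hspd1 was lower in VQ-D1 than in VQ-D5 by -1.50 (adjusted p = 1.42e-11, SE 0.0950) and lower in VQ-D4 than in VQ-D5 by -1.61 (adjusted p = 1.32e-11, SE 0.0994). Between VQ-D1 and VQ-D4 Hspd1 differed by 0.11, with a 95% interval of -0.10 to 0.31. The Hsp90ab1 differences were smaller, from -0.55 (VQ-D4 against VQ-D5) to 0.33 (VQ-D2 against VQ-D4). For the inducible pair, Hspa1a in VQ-D2 against VQ-D4 was at -4.41 (adjusted p = 0.00083, SE 0.967), and without VQ-D5 replicate 3 Hspa1a came out higher in VQ-D4 than in VQ-D5 (2.35, adjusted p = 0.0278, against 0.94 and 0.371 with all libraries). The call of Hspa1b in VQ-D4 against VQ-D5 (-2.24 (adjusted p = 0.0289, SE 0.848)) was lost without that library (-1.39, adjusted p = 0.199) and without any of 3 others.

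The mean of the 4 VQ lines was then compared with t-VK12653, the MYC transgene with mutant NRAS against the transgene without it; only 1 donor carries the latter, so genotype and donor cannot be told apart. It called 5 members higher and none lower (background 61.2% of genes, 29.6% higher and 31.6% lower). Of the 5 called, Hsp90aa1 had the largest difference, at 1.47 (adjusted p = 2.68e-10, SE 0.113); the 16 VQ libraries ran from 108 to 271 CPM (median 203) and the 4 t-VK12653 libraries from 54.5 to 83.2 CPM, without overlap, as in 7.01% of genes. Hspd1 was higher by 1.13 (adjusted p = 5.63e-11, SE 0.0790), with 15 of 16 VQ libraries above t-VK12653. Hsph1 was higher by 0.69 (adjusted p = 0.000905, SE 0.160), with 12 of 16 above and the 4 VQ-D4 libraries below; in marrow libraries alone, which leave out VQ-D2, the value was -0.01. Hspa8 was higher by 0.33 (adjusted p = 0.000921, SE 0.0779) and Hspe1 by 0.30 (adjusted p = 0.00809, SE 0.0935); with counts summed per recipient these became 0.19 (adjusted p = 0.273) and 0.25 (adjusted p = 0.203).

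Hsp90ab1 differed between the VQ lines and t-VK12653 by 0.06 (95% interval -0.10 to 0.22); without t-VK12653 replicate 4, its highest library, the value was 0.19 (adjusted p = 0.0231). Dnajb1 was at 0.38 (adjusted p = 0.132, SE 0.212), and without control replicate 1 at 0.41 (adjusted p = 0.0262). Without that library Hspa1a and Hspa1b also passed the threshold (adjusted p = 0.0261 and 0.0268, against 0.0583 and 0.0625 with all libraries), which takes the count from 5 to 8. The controls are on neither side of this comparison. How leaving out that library moved the adjusted p-values was not tested.

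When counts were summed per donor, so that the 4 VQ donors are the replicates, 6 members differed from the 3 controls (5 higher, 1 lower), where 23% of 13870 genes did (13.7% higher, 9.27% lower). Hsp90ab1 was at 1.57 (adjusted p = 0.006, SE 0.229), Hspe1 at 2.05 (adjusted p = 0.00659, SE 0.318) and Hspd1 at 2.43 (adjusted p = 0.015, SE 0.499). Hsp90aa1, Hspa8 and Dnajb1 were at 1.55, 1.14 and -1.46 (adjusted p = 0.015, 0.0121 and 0.0435). Without control replicate 1, 2 or 3 in turn, 2 members were called each time, so with 2 controls left Hsp90aa1, Hspa8, Hspd1 and Dnajb1 missed the threshold.

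No member differed between tissues within lines by edgeR, either for spleen against marrow (0 of 12867 genes called, 0%; unadjusted p under 0.05 for 2 members and 829 genes) or for lymph node against marrow (0 members; 0.0155% of genes called, 0.00777% higher and 0.00777% lower; unadjusted p under 0.05 for 2 members and 886 genes). DESeq2 called 0 members in both. A missing call does not show equal levels, least of all for Hspa1a and Hspa1b with their low counts. In VQ-D5, for example, Hspa1a was at 1.91 and 0.229 CPM in marrow and at 8.63 and 0.698 CPM in lymph node. For spleen against marrow, the log2 differences were 0.23 for Hspa8 (95% interval 0.08 to 0.38) and 0.32 for Hsph1 (0.01 to 0.63). The spleen difference was compared between VQ-D1 and t-VK12653, the lines with 2 libraries of each tissue: 0 of 8 members tested and 0% of genes were called by edgeR (unadjusted p under 0.05 for 1 member and 539 genes).

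Ratios of members within a library do not depend on the scaling between libraries. HSP90 alpha to beta, as Hsp90aa1 to Hsp90ab1 in TPM, was 0.0162, 0.0145, 0.0217 and 0.0167 in t-VK12653 and 0.0301, 0.0295, 0.0351 and 0.0323 in VQ-D1. The mean was 0.0553 ± 0.00426 for VQ-D2, 0.0479 ± 0.00549 for VQ-D4, 0.0488 ± 0.00233 for VQ-D5 (SD, n = 4) and 0.0475 ± 0.00776 for controls (SD, n = 3). The 4 t-VK12653 libraries were the lowest of all and the VQ-D1 libraries the next, without overlap with each other or with any other group. Of the 10 pairs of lines, 7 differed, each with an exact permutation p of 0.0286, the smallest that 4 against 4 can give (two-sided; adjusted p = 0.0387 over 23 tests); the pairs among VQ-D2, VQ-D4 and VQ-D5 missed the threshold. Only pairs of lines were tested, and the control values are given as a description.

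The mitochondrial pair was less even, and the sharing of sequence with other genes given above bears on this ratio too. Hspd1 to Hspe1 in TPM was 0.312 ± 0.0293 in t-VK12653, 0.384 ± 0.0534 in VQ-D4, 0.533 ± 0.0321 in VQ-D1, 0.654 ± 0.0613 in VQ-D2 and 0.781 ± 0.0462 in VQ-D5 (SD, n = 4). The controls spanned a wide part of this range, at 0.458, 0.659 and 0.360. Of the 10 pairs of lines 9 differed (exact permutation p = 0.0286, adjusted p = 0.0387), all but VQ-D4 against t-VK12653 (exact permutation p = 0.0571). The inducible HSP70 pair relative to Hspa8 was 0.171, 0.0406 and 0.0389 in controls and below every control in each myeloma library. Libraries without a read of the pair left only VQ-D2, VQ-D4 and VQ-D5 to be compared on the log scale; the ratio was higher in VQ-D4 (0.0111 ± 0.00413) than in VQ-D2 (0.00332 ± 0.00150; exact permutation p = 0.0286, adjusted p = 0.0387), and VQ-D5, at 0.00697, 0.00137, 0.0213 and 0.00302, overlapped both.

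**Figure D3:**
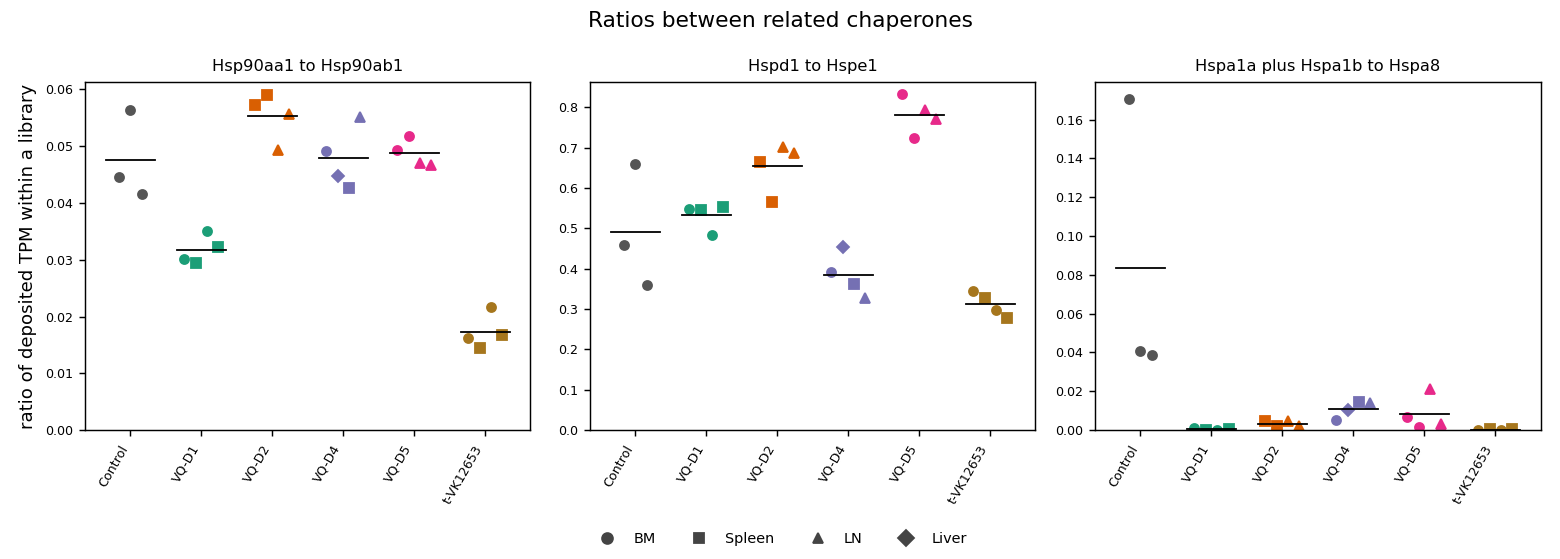
Ratios of TPM within each library (vertical axes) for Hsp90aa1 to Hsp90ab1, Hspd1 to Hspe1, and Hspa1a plus Hspa1b to Hspa8, by group; points are libraries. The Hsp90aa1 to Hsp90ab1 ratio is lowest in t-VK12653, the Hspd1 to Hspe1 ratio is highest in VQ-D5, and the inducible to constitutive HSP70 ratio is highest in the controls.

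Genes that work with the members were taken from lists of their partners, whose counts stand beside 59.4%, 57.5%, 54.3%, 63.8% and 56.9% of all genes called against controls (VQ lines in the order of their numbers, then t-VK12653; 27.5% to 31.2% higher and 26.8% to 32.5% lower). HSP90 co-chaperones load clients onto HSP90 and time its cycle. Of 12, 9 were higher and 1 lower than controls in VQ-D1, 11 and 0 in VQ-D2, 3 and 2 in VQ-D4, 10 and 0 in VQ-D5, and 3 and 3 in t-VK12653. Their median log2 fold change was 0.72, 0.95, 0.13, 1.03 and 0.06 in the same order, beside all-gene medians near 0 given above. The counts called in VQ-D4 and t-VK12653 are smaller shares than those of all genes. Cdc37, which brings kinases to HSP90, rose in all 5 lines, from 0.49 in t-VK12653 to 1.02 in VQ-D5. Ppid, a cyclophilin of the HSP90 complex, went from 11.3 ± 0.616 CPM (SD, n = 3; controls) to 108 ± 1.31 CPM (SD, n = 4; VQ-D5), a log2 fold change of 3.28 (adjusted p = 3.01e-12, SE 0.190). Stip1, which bridges HSP70 and HSP90, rose in VQ-D5 (1.04 (adjusted p = 2.83e-07, SE 0.126)). In the VQ lines against t-VK12653, a single donor, it was higher by 1.17 (adjusted p = 6.51e-10, SE 0.0952). In that comparison 10 of 12 co-chaperones were higher and 2 lower, where 61.2% of all genes were called (29.6% higher, 31.6% lower).

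TRiC is the cytosolic chaperonin that folds actin and tubulin, to which prefoldin delivers clients. Of the 14 subunits of both, 10 were higher and 0 lower in VQ-D1, 11 and 1 in VQ-D2, 11 and 0 in VQ-D4, 11 and 0 in VQ-D5 and 11 and 1 in t-VK12653, with median log2 fold changes of 0.95, 1.46, 0.91, 1.44 and 0.56. The TRiC subunit Cct3 rose most in VQ-D5, by 2.99 (adjusted p = 1.3e-15, SE 0.104), and Cct2 most in VQ-D1, by 1.77 (adjusted p = 2.17e-12, SE 0.0941). Tcp1 rose by 1.31 in t-VK12653 and 1.98 in VQ-D5. Summed over the list, the level was 1238 ± 13.5 CPM in controls (SD, n = 3), 2105 ± 114 CPM in t-VK12653 and 4610 ± 200 CPM in VQ-D5 (SD, n = 4). The order of the 5 lines by this sum was that of Hspd1 except for VQ-D1 and VQ-D4, which changed places.

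Of 11 other mitochondrial chaperones and proteases, 4 were higher and 2 lower in VQ-D1, 7 and 1 in VQ-D2, 6 and 2 in VQ-D4, 8 and 1 in VQ-D5, and 5 and 3 in t-VK12653. The 6 called in VQ-D1 are a share just under that of all genes. Hspa9 (mortalin, the mitochondrial HSP70) rose in all 5 lines, from 0.87 in t-VK12653 to 1.67 in VQ-D5. Trap1, the mitochondrial HSP90, rose in the 4 VQ lines, by 0.38 to 1.40, and fell in t-VK12653, by -0.69 (adjusted p = 1.19e-05, SE 0.108); between the VQ lines and t-VK12653 it differed by 1.65 (adjusted p = 3.36e-13, SE 0.0834). Of 19 HSP70 co-chaperones and relatives of HSP110, 9 were higher and 7 lower in VQ-D1, 9 and 2 in VQ-D2, 5 and 3 in VQ-D4, 10 and 4 in VQ-D5, and 6 and 6 in t-VK12653. The 8 called in VQ-D4 are a smaller share than that of all genes, and the counts in VQ-D2 and t-VK12653 are near it. Hspa4, an HSP110 protein like Hsph1, rose in all 5 lines, by 0.37 in t-VK12653, 0.53 in VQ-D4 and 0.95 in VQ-D5, where Hsph1 fell in t-VK12653 and VQ-D4. Dnaja4, a J protein, fell by -3.05 (adjusted p = 2.55e-07, SE 0.368) in VQ-D5, and Bag3, a nucleotide exchange factor of HSP70, rose by 1.65 (adjusted p = 2.83e-09, SE 0.142) in t-VK12653.

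Endoplasmic reticulum chaperones, which fold secreted proteins such as antibodies, were read beside the cytosolic ones. Of 12 such genes, 6 were higher and 2 lower in VQ-D1, 5 and 2 in VQ-D2, 5 and 1 in VQ-D4, 7 and 2 in VQ-D5, and 1 and 7 in t-VK12653. The counts in VQ-D2 and VQ-D4 are near the shares of all genes called there (57.5% and 54.3%). The summed level of the 12 was 21694 ± 3020 CPM in controls (SD, n = 3), 16105 ± 1753 CPM in t-VK12653 and 32228 ± 1098 CPM in VQ-D5 (SD, n = 4). Hspa5 (BiP) fell in t-VK12653, by -0.52 (adjusted p = 0.00243, SE 0.135), and Dnajc3 fell there by -1.27 (adjusted p = 8.12e-08, SE 0.137), while Pdia6, a disulfide isomerase, rose in VQ-D5 by 1.85 (adjusted p = 5.34e-10, SE 0.149). Of the list, 9 were higher and 1 lower in the VQ lines than in t-VK12653, where 61.2% of all genes were called (29.6% higher, 31.6% lower).

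Of 5 heat shock factors and regulators, 2 were higher and 3 lower in VQ-D1, 0 and 1 in VQ-D2, 0 and 0 in VQ-D4, 0 and 1 in VQ-D5, and 0 and 2 in t-VK12653. In every line but VQ-D1 this is a smaller share than that of all genes. Hsf1, the factor that drives the heat shock response, had a control level of 27.8 ± 2.11 CPM (SD, n = 3) and 21.96 ± 2.99 CPM in VQ-D1 (SD, n = 4), a fall by the test (-0.40 (adjusted p = 0.0251, SE 0.150)). In the other lines its log2 fold change was 0.01, -0.09, -0.06 and -0.23 (VQ-D2, VQ-D4, VQ-D5 and t-VK12653), none past the threshold. Small heat shock proteins were scarce: 4 of 7 passed the filter on low counts, and all 7 summed to 7.61 to 14.98 CPM in controls. Of these 4, 1 was higher in VQ-D1, 2 in VQ-D2 and 1 in t-VK12653, and none was called in VQ-D4 or VQ-D5. Cryab (alpha B crystallin) had 0 reads in the 3 controls, which allows up to 0.305 CPM, and 9.05 to 13.1 CPM in VQ-D2. Its neighbour in the list, Hspb2, had 0 reads in controls and 61 reads in VQ-D2. All of these calls were of Cryab or Hspb2. Outside VQ-D2 no library held more than 1.53 CPM of Cryab or 0.429 CPM of Hspb2. Both genes thus passed the filter through their levels in VQ-D2, so the calls are not independent of the filter.

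**Figure D4:**
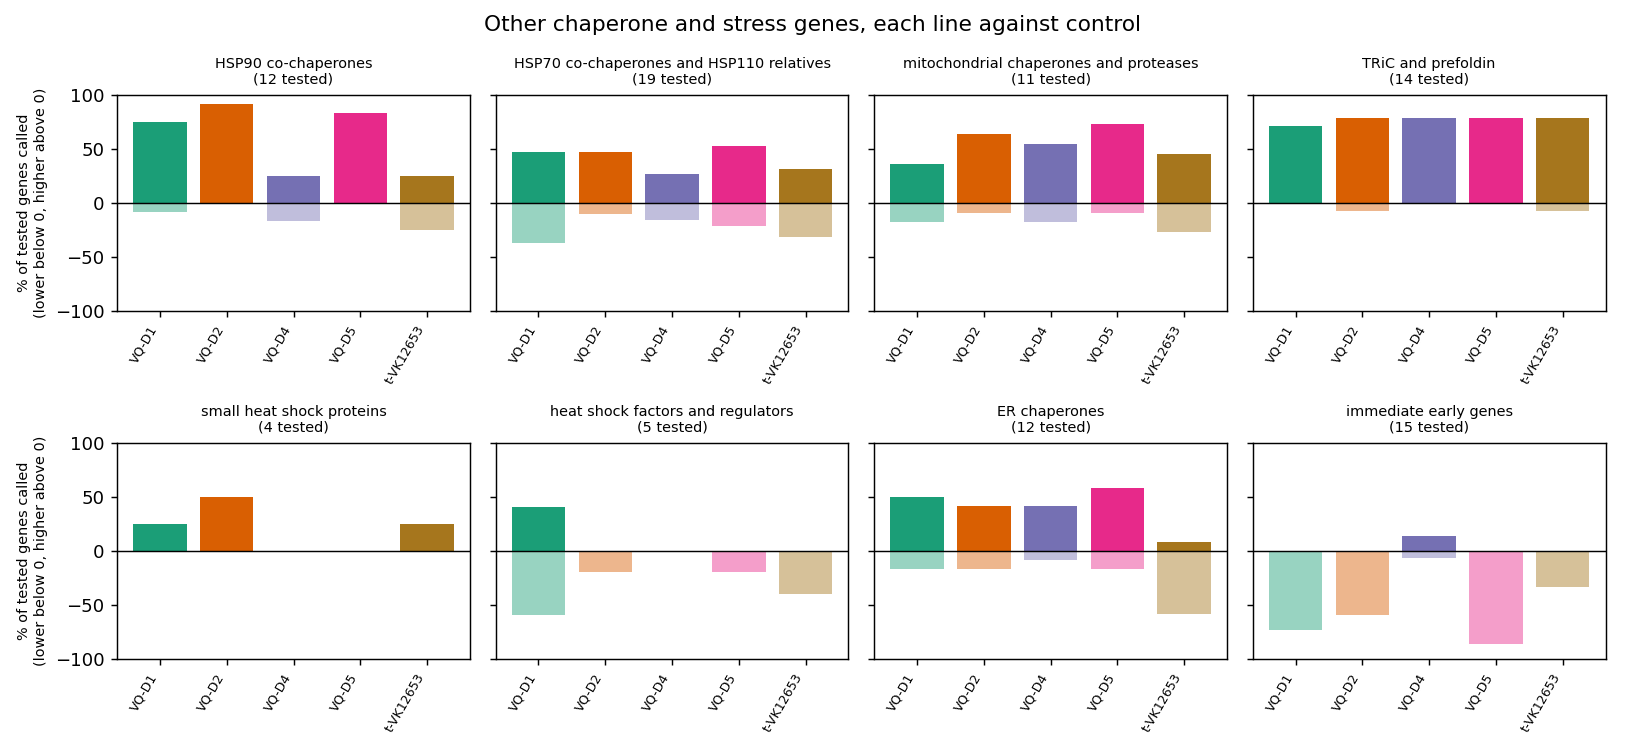
Percent of the tested genes of each of 8 lists called higher or lower than controls (adjusted p under 0.05) in each myeloma line. TRiC and prefoldin genes are mostly called higher in every line, HSP90 co-chaperones in VQ-D1, VQ-D2 and VQ-D5, and immediate early genes mostly lower in VQ-D1, VQ-D2 and VQ-D5.

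Immediate early genes such as Fos and Jun rise within minutes of cell handling or other stimuli, as can the inducible HSP70 genes. The 15 on the list summed to 16322, 5899 and 6420 CPM in the controls, replicate 1 the highest as for Hspa1a, Hspa1b, Dnajb1 and Hsph1. The range was 1389 to 4269 CPM in VQ-D1, 1536 to 2225 CPM in VQ-D2, 5221 to 14844 CPM in VQ-D4, 1314 to 2433 CPM in VQ-D5 and 2423 to 10850 CPM in t-VK12653. Against controls 13 were lower in VQ-D5, 11 in VQ-D1, 9 in VQ-D2 and 5 in t-VK12653; in VQ-D4 1 was lower and 2 were higher. Jun was at -3.36 (adjusted p = 0.0048, SE 0.912) in VQ-D5 and -0.21 (adjusted p = 0.866, SE 0.923) in VQ-D4. In t-VK12653, Hspa1a had 0 reads while the highest immediate early sum of the line lay within the control range. In VQ-D4 that sum overlapped the controls, Hspa1b and Dnajb1 were below every control, and Hspa1a reached the control range in spleen and lymph node. Within the controls and each VQ line, the library with the highest immediate early sum also had the highest Dnajb1 level. The same library had the group's highest level of Hspa1a plus Hspa1b. It was replicate 1 in the controls, VQ-D1 and VQ-D2, and replicate 3 in VQ-D4 and VQ-D5. In VQ-D4 this was the spleen library (14844 CPM, Dnajb1 56.4 CPM), while Hspa1b alone was highest in liver. In t-VK12653 the library with the highest sum, replicate 3, had neither the highest Dnajb1 nor the highest pair level. The part of sample handling in the levels of the inducible genes was not tested.

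**Figure D5:**
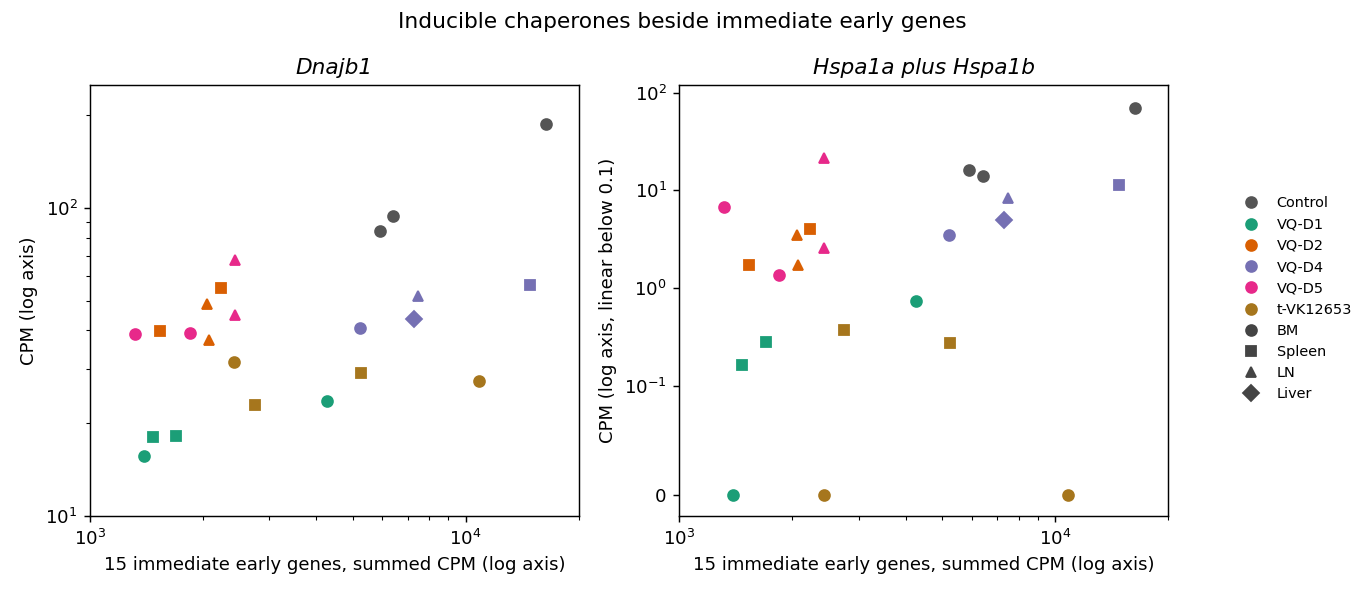
Summed CPM of 15 immediate early genes (horizontal axis, log scale) against CPM of Dnajb1 and of Hspa1a plus Hspa1b (vertical axes) in the 23 libraries; colours give the groups. Control replicate 1 is highest on every axis, and libraries of VQ-D4 and t-VK12653 reach control values on the horizontal axis but not on the Dnajb1 axis.

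Over the 6 group means of log2 CPM, and among 8400 genes with a mean of at least 10 CPM, the genes most like Hspd1 were Eif1ax, Hmmr and Peo1 (Pearson r = 0.998, 0.998 and 0.997). Those most like Hsp90ab1 were Wdr55, Rpl12 and Foxm1 (0.998, 0.998 and 0.994), and those most like Hspa1a plus Hspa1b were Slc25a37, Vps9d1 and Zfp335 (0.993, 0.993 and 0.988). With 6 points that share their libraries, these are descriptions. Over the 23 libraries the leading 3 were others for each: Thop1, Nap1l1 and Cct3 for Hspd1 (r = 0.988, 0.981 and 0.981), Rps3a1, Exosc5 and Ncl for Hsp90ab1 (0.961, 0.955 and 0.953), and Phkb, Lonp2 and Fam65a for the inducible pair (0.856, 0.853 and 0.846).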

How the data were processed

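RNA of sorted cells was extracted with a column kit for small samples (RNeasy Micro) and sequenced from SMARTer Pico libraries, which keep strand and start from little input, per the labels' protocols. STAR, featureCounts and DESeq2 are named in the submitters' processing notes, with the builds GRCm38 and mm10; their versions, the annotation and the strand setting: not given in the sources used here. Each library has 1 deposited table of raw read counts per gene with FPKM and TPM columns made by the authors. Counts were tested, deposited TPM served for levels between genes and for ratios, and FPKM was used only to derive the gene length behind it.

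Counts were analysed in R 4.3.3 with edgeR 4.0.16 (robust quasi-likelihood test, limma 3.58.1), TMM scaling, filterByExpr (count minimum 10, total minimum 15) and the terms group and tissue over all 23 libraries; 12867 genes and all 10 members passed. CPM uses TMM-scaled library sizes. Adjusted p-values are Benjamini-Hochberg over all genes tested, and called means under 0.05. The interaction of line and tissue was fitted on VQ-D1 and t-VK12653 alone. Ratios were tested by exact two-sided permutation of log2 count ratios. Log2 CPM for likeness used a prior count of 2. The fit over all 23 libraries, read for VQ-D2 against controls, and the line sums were run on simulated data with independent libraries. The interaction fit, the ratio tests and the alternatives were not. Counting intervals are exact at 95% and cover counting error only.

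The members and lists were chosen with earlier results of these data known. All 10 members are named; of each list, genes are named only if among the 3 with the highest mean CPM or, per comparison, among the 2 called genes with the largest log2 fold change. Likeness leaves out members, predicted genes, small RNAs and sex-linked genes. Alternatives were RLE scaling, no filter, DESeq2 1.42.0, no tissue term, marrow libraries alone, the replicate number as a block, counts summed per recipient, a pseudocount of 0.5, TPM ratios and leaving out each library. Leaving out control replicate 1 and VQ-D5 replicate 3 together, and the pair form of the heat shock element, were added after seeing the data.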

Additional observations from a re-analysis of the deposited data

Results flagged for a closer look

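Hspa1a in VQ-D1 was at 0.246 CPM in replicate 1, a marrow library, and at 0 in the other 3 libraries of the line. That single value is 1 read, and it stood apart from the rest of its group by the whole range. Of 49 groups of 4 libraries examined for the members, 1 showed such a gap. The usual chance rate of about 1 in 20 groups assumes normally distributed values, which counts of 1 and 0 are not.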

How the results depend on the processing

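Of 4608 single-gene values under the alternatives, 4450 kept their side of the threshold with no called value changing sign (39 changed sign with neither value past the threshold), 112 lost the call, 45 gained one and 1 called value reversed: Hsph1 in the VQ lines against t-VK12653 in marrow libraries alone (-0.0116). The counts of members called against controls stayed within 1.5 times of 9, 9, 9, 8 and 9 (VQ lines in the order of their numbers, then t-VK12653) under each alternative run, with 9 to 9, 9 to 9, 8 to 10, 7 to 8 and 8 to 9 when 1 library was left out. For the VQ lines against t-VK12653 (5 called) the count was 8 with no filter, 3 in marrow alone, 3 with counts summed per recipient, 8 without control replicate 1 and VQ-D5 replicate 3, and 5 to 8 when 1 library was left out. In marrow alone it was 1 for VQ-D1 against VQ-D4 (5), 4 for VQ-D1 against VQ-D5 (10) and 4 for VQ-D4 against VQ-D5 (8). With counts summed per recipient it was 5 for VQ-D1 against VQ-D2 (8), 3 for VQ-D1 against VQ-D4 and 2 for VQ-D2 against VQ-D5 (4). Leaving out 1 library gave 6 to 9 for VQ-D1 against VQ-D2 and 2 to 5 for VQ-D2 against VQ-D5, and leaving out both named libraries gave 2 for the latter. For the line sums (6 called) it was 2 without both and 2 to 7 when 1 library was left out. The ratio of the inducible pair to Hspa8 had 1 call, 7 with a pseudocount of 0.5, and 0 to 3 when 1 library was left out. Fewer libraries were tested in marrow alone and in recipient sums; for the other changes the cause was not tested. RLE scaling moved the median of all genes from -0.04 to -0.13 in VQ-D5 against controls and from 0.19 to 0.07 in the line sums.

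Replicate numbers did not pair the libraries: over 55 pairs with the same number the correlation of deviations ran from -0.222 to 0.142 (median 0.0180), and 4 passed 0.1. With the replicate number as a block, the counts were 9, 9, 10, 8 and 9 against controls, 6 for the VQ lines against t-VK12653, 6 for VQ-D1 against VQ-D2, 5 for VQ-D1 against VQ-D4, 10 for VQ-D1 against VQ-D5, 7 for VQ-D2 against VQ-D4, 5 for VQ-D2 against VQ-D5 and 9 for VQ-D4 against VQ-D5. DESeq2 gave 9, 9, 9, 8 and 9 against controls and 7 in the line sums. Low counts limit Hspa1a and Hspa1b most.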
